A study of Mus musculus with 8 samples.

Results

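The 10 genes examined here make up the core of the MHC class I presentation pathway of the mouse: the classical heavy chains H2-K1 and H2-D1, their light chain B2m, the peptide transporter subunits Tap1 and Tap2, the loading chaperone Tapbp (tapasin), the immunoproteasome subunits Psmb8, Psmb9 and Psmb10, and the transactivator Nlrc5. They were chosen by symbol, each symbol had 1 row, and together they are 10 of the 55487 gene IDs in the tables. MHC class I molecules carry peptides of cytosolic proteins to the cell surface, where CD8+ T cells read them. The peptides are cut by the proteasome, pumped into the endoplasmic reticulum by the Tap1-Tap2 transporter and fitted to the heavy chain with the help of tapasin. Interferons raise the pathway in most cells, and in the healthy brain it is known to be strongest in blood vessels and weak in neurons and myelinating glia.

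Hippocampal cells were sorted as live CD45- Thy1- cells, a gate that leaves out leukocytes and most neurons, and measured by single-cell RNA sequencing in 1 library per genotype. One library, DTRneg, came from Foxp3-DTR- littermates and the other, DTRpos, from Foxp3-DTR+ mice, in which the diphtheria toxin receptor is tied to Foxp3, the gene of regulatory T cells (Treg cells). Both genotypes received diphtheria toxin, 2 mice were pooled in each library, and the toxin kills receptor-bearing cells, so that DTRpos against DTRneg asks what differed in the hippocampal niche after Treg depletion. The ages, and how far Treg cells were depleted in these animals, are not given in the sources used here. As a reference from another tissue, CD4+ T cells of the meninges (gated on CD45, CD3 and CD4) were taken in 2 replicates, 1 of genotype Foxp3-GFP and 1 of genotype B6.WT, with no treatment in the labels.

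Of the 10 genes, 7 lie on chromosome 17 (mm10, GENCODE M21), in the major histocompatibility complex or beside it. H2-K1 spans chr17:33996017-34000347 on the minus strand and H2-D1 chr17:35262730-35267499 on the plus strand. Psmb9 (chr17:34181987-34187764, minus strand), Tap1 (chr17:34187553-34197225), Psmb8 (chr17:34197721-34201454) and Tap2 (chr17:34203527-34216321, all plus strand) form a tight row, and Tapbp lies at chr17:33915899-33929292 on the plus strand. B2m lies at chr2:122147686-122153083 (plus strand), Psmb10 at chr8:105935735-105938444 (minus strand) and Nlrc5 at chr8:94434356-94527272 (plus strand). B2m lies within Patl2 on the opposite strand over its whole length of 5398 bases, and Tapbp overlaps Zbtb22 on the same strand over 3422 bases. The annotated 5′ ends of Psmb9 and Tap1, on opposite strands, overlap by 212 bases. Among 50-base words in the last 500 bases of the transcripts, where 3′ reads fall, 9.60% of those of H2-K1 and 8.92% of those of H2-D1 also occur in other genes. The figure was 4.83% for Tapbp, 2.75% for Tap1 and 0 for the other 6. Reads in those stretches could have gone to either gene or to none.

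The stretch before the transcription start is shown for the genes the results turn on, because class I genes are known to share regulatory elements there. The sequences are from RefSeq (GRCm38.p6, the build named mm10), which held a promoter window for 8 of the 10 genes. Windows for Tap2 and Nlrc5 were not in the table. Each line gives the 250 bases before the start of H2-K1 (chr17:34000348-34000597, minus strand), H2-D1 (chr17:35262844-35263093, plus strand) and B2m (chr2:122147437-122147686, plus strand), 5′ to 3′. The last line gives the 225 bases between the starts of the oppositely transcribed genes Psmb9 and Tap1 (chr17:34187331-34187555), written on the strand of Tap1. Capitals mark matches, on either strand, to 5 motifs named in the next paragraph.
H2-K1: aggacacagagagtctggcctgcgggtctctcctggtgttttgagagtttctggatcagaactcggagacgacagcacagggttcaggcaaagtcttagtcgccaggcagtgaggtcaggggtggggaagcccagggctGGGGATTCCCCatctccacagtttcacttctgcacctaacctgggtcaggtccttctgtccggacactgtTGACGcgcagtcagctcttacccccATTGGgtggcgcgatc
H2-D1: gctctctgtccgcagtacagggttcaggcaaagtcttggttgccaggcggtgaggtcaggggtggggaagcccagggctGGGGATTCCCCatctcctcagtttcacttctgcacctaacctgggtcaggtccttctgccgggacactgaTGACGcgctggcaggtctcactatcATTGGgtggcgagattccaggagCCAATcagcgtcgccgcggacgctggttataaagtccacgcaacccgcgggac
B2m: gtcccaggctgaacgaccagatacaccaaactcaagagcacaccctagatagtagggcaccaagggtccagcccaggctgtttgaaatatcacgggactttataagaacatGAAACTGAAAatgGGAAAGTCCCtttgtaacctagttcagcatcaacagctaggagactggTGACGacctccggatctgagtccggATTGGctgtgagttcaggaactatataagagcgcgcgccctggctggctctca
Tap1 and Psmb9: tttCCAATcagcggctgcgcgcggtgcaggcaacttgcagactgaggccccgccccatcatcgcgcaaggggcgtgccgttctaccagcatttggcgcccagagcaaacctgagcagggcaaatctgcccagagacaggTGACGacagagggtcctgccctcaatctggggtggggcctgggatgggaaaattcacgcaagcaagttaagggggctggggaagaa

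The motifs searched, on both strands, were the interferon-stimulated response element (ISRE; GAAA, any 2 bases, GAAA), the interferon-gamma activated site (GAS, TTCNNNGAA), the NF-kappaB consensus, the core of a cyclic AMP response element (TGACG) and the CCAAT box, written ATTGG on the other strand. The NF-kappaB consensus was found in H2-K1, H2-D1 and B2m, and in 7.25% of all 32817 promoter windows of 250 bases. H2-K1 and H2-D1 held overlapping matches to it on both strands, in the same run of 11 bases (GGGGATTCCCC), which only 6 windows in all contained. In both heavy chains this run began 70 bases before TGACG, which began 25 bases before ATTGG, and over those 100 bases 89 were the same in the 2 genes with no gap. B2m also had TGACG 25 bases before ATTGG, and it was the 1 gene of the 8 with the ISRE letters (GAAACTGAAA; 2.97% of windows). Psmb8 had a GAS match 97 bases before its start (7.01% of windows). TGACG was found in 5 of the 8 genes (17.7% of all windows) and the CCAAT box in 6 of 8 (33.8% of windows). The stretch between Psmb9 and Tap1 held 1 match each to TGACG and CCAAT. Each was counted for both genes, so the counts of genes are not counts of separate sites. Only these exact patterns were searched, so a gene without a match, such as H2-K1 or H2-D1 for the ISRE, may still hold a looser form of the element. These are matches of letters and say nothing of what is bound.

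The DTRneg library held 8220 barcodes and 53484704 UMIs (unique molecular identifiers, 1 per captured RNA molecule), and DTRpos held 6548 barcodes and 35814655 UMIs. After filters, 6863 and 5691 cells remained, with medians of 6003 and 4509 UMIs. The 2 hippocampal libraries shared 18 barcodes and the 2 meningeal ones 554. Cells were put in 7 classes by their UMIs of Cldn5, Rgs5, Dcn, Aqp4, Pdgfra, Mog and Igfbpl1. A cell needed at least 2 UMIs of a marker and at least 3 times the next marker. Each class had 3 or more other markers of its type in at least 10% of its cells. Its 10 leading genes, ranked by fold over the highest other class, held no marker of another type. That ranking cannot show a marker that is higher in its own class, so it says nothing of mixing between the 7 classes. The classes are called endothelial-like (479 cells in DTRneg, 352 in DTRpos), pericyte-like (189, 152), fibroblast-like (50, 37), astrocyte-like (633, 663), OPC-like (oligodendrocyte precursor cells; 663, 801), oligodendrocyte-like (3709, 2576) and neuroblast-like (185, 141), while 955 and 969 cells entered no class. The label of both libraries reads neurons and glia; outside the OPC-like and neuroblast-like classes the neuronal genes Snap25, Rbfox3 and Syt1 summed to between 0 and 5.59 CPM (UMIs of the gene per 1000000 UMIs of the class). Of the microglial list, Ptprc, Cx3cr1, P2ry12, Tmem119, Csf1r and C1qa were at 0 in the endothelial-like and pericyte-like classes of both libraries. The fibroblast-like class carried the pericyte list at 12290 CPM in DTRneg and 13133 CPM in DTRpos, mostly Vtn, with Rgs5 and Higd1b at 0. Its own list summed to 9031 and 10168 CPM, and the astrocyte list to 1883 and 1340 CPM.

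Levels are given in CPM after summing all cells of a class in a library. With 1 library per group no test between the genotypes was possible, so ratios carry 95% intervals for counting error only, which leave out the spread between mice.

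Endothelial-like cells held the highest level of each of the 10 genes in both libraries. For Tap2 and Nlrc5 their counting intervals overlapped those of other classes. Summed over the 10 genes, endothelial-like cells reached 4145 CPM in DTRneg (95% interval 4020 to 4272) and 5653 CPM in DTRpos (5472 to 5839). At least 1 UMI was found in 98.1% and 97.7% of the cells. Pericyte-like cells followed in DTRneg (783 CPM) ahead of fibroblast-like cells (654 CPM), and the order of these 2 classes was the other way in DTRpos (651 and 770 CPM), with overlapping intervals in both libraries. OPC-like cells came next (391 and 380 CPM), then astrocyte-like (325 and 316 CPM), neuroblast-like (119 and 125 CPM) and oligodendrocyte-like cells (82.5 and 90.1 CPM). None of the intervals of these further neighbours overlapped. Endothelial-like cells were 6.98% of DTRneg cells and gave 36.6% of all UMIs of the 10 genes, and in DTRpos 6.19% of cells gave 39.0%. In oligodendrocyte-like cells, the class with the most cells, 57.4% in DTRneg and 60.1% in DTRpos had no UMI of any of the 10 genes, at medians of 7658 and 6396.5 UMIs per cell.

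**Figure D1:**
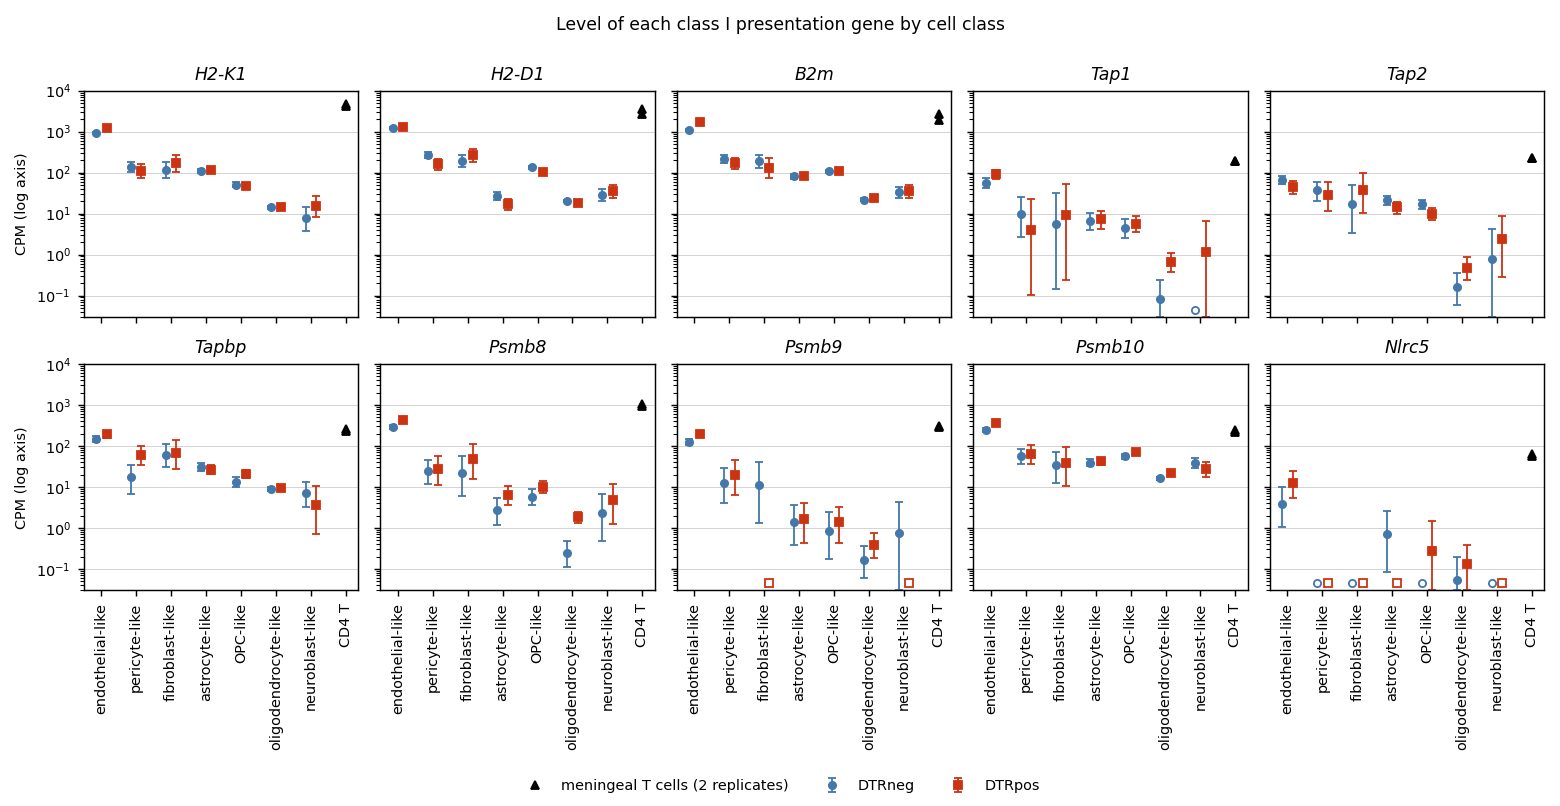
Level of each gene in CPM on a log axis, by cell class (1 point per hippocampal library, bars are 95% Poisson intervals for counting error, running off the axis where they reach 0; open symbols at the bottom are classes at 0) and in the 2 meningeal CD4 T-cell replicates (triangles). Endothelial-like points stand above those of every other hippocampal class for each of the 10 genes, with overlapping intervals for Tap2 and Nlrc5. Oligodendrocyte-like and neuroblast-like cells are lowest for most.

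The heavy chains and the light chain B2m followed this order with exceptions. H2-K1 stood at 912 CPM (DTRneg) and 1240 CPM (DTRpos) in endothelial-like cells, at 112 and 119 CPM in astrocyte-like cells, at 50.5 and 46.0 CPM in OPC-like cells and at 14.2 and 14.5 CPM in oligodendrocyte-like cells. H2-D1 stood at 1225 and 1331 CPM in endothelial-like cells, at 136 and 106 CPM in OPC-like cells, but at only 27.0 and 16.9 CPM in astrocyte-like cells. OPC-like cells therefore had less H2-K1 and more H2-D1 than astrocyte-like cells in both libraries, and the intervals of the 2 classes did not overlap for either gene. B2m, which every class I molecule needs at the surface, was at 1071 and 1745 CPM in endothelial-like cells, 218 and 173 CPM in pericyte-like cells, 107 and 110 CPM in OPC-like cells, 82.0 and 81.4 CPM in astrocyte-like cells and 21.9 and 23.4 CPM in oligodendrocyte-like cells.

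The transporter and the chaperone differed in how they were spread. Tap1 was at 57.0 and 90.8 CPM in endothelial-like cells, 6.66 and 7.25 CPM in astrocyte-like cells, 4.44 and 5.72 CPM in OPC-like cells, and rested on 3 and 15 UMIs among all oligodendrocyte-like cells (0.0824 and 0.657 CPM). Its partner Tap2 was at 66.8 and 44.6 CPM in endothelial-like cells and 36.7 and 28.1 CPM in pericyte-like cells, a lead of 1.82-fold over this next class in DTRneg. In DTRpos the next class was fibroblast-like, at 38.01 CPM on 4 UMIs, and the lead over it was 1.17-fold. Tap2 was at 21.4 and 14.1 CPM in astrocyte-like cells and at 16.9 and 9.80 CPM in OPC-like cells. Tapbp, at 145 and 192 CPM in endothelial-like cells, was the least uneven of the 3 between glial classes, with 30.9 and 26.6 CPM in astrocyte-like, 13.6 and 20.96 CPM in OPC-like and 9.01 and 9.33 CPM in oligodendrocyte-like cells.

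The immunoproteasome subunits differed among themselves. Psmb8 and Psmb9, which replace constitutive catalytic subunits when cells meet interferon, were low in the glial and neuroblast-like classes. Psmb8 was at 295 and 440 CPM in endothelial-like cells against 2.80 and 6.45 CPM in astrocyte-like and 5.83 and 10.1 CPM in OPC-like cells. In fibroblast-like cells Psmb8 rested on 4 and 5 UMIs and Psmb9 on 2 and 0. Psmb9 was at 124 and 200 CPM in endothelial-like cells, 12.2 and 20.1 CPM in pericyte-like cells and between 0 and 1.61 CPM in the astrocyte-like, OPC-like, oligodendrocyte-like and neuroblast-like classes. The lead of endothelial-like cells over the next class was 12.05-fold for Psmb8 and 10.1-fold for Psmb9 in DTRneg, and 9.26-fold and 9.96-fold in DTRpos. Psmb10, the third of these subunits, was present in every class, at 246 and 356 CPM in endothelial-like cells, 55.8 and 69.7 CPM in OPC-like cells, 39.6 and 42.7 CPM in astrocyte-like cells, 38.8 and 27.1 CPM in neuroblast-like cells and 16.3 and 21.5 CPM in oligodendrocyte-like cells. Nlrc5, a transactivator of class I genes, gave 4 UMIs in endothelial-like cells of DTRneg and 8 in DTRpos (3.93 and 12.3 CPM). It gave no more than 3 UMIs in any other class. At this depth nothing further could be read from Nlrc5.

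In endothelial-like cells the summed level of the 10 genes was higher in DTRpos than in DTRneg, by 0.45 on the log2 scale (95% interval for counting error 0.38 to 0.51; 3673 and 4219 UMIs). Of the 9 genes with at least 20 UMIs over both libraries, 8 were above 0 (53.4% of all genes measured in this class were) and 3 (B2m, Tap1 and Psmb9) passed 1.5-fold higher, where 9.46% of the 7665 genes measured in this class passed it. None passed 1.5-fold lower, as 8.73% of all genes did. The median of the 9 log2 ratios was 0.53, against 0.03 for all genes measured. Counted as UMIs per cell in place of CPM, a scaling added after seeing the data because cells of DTRpos were shallower (medians of 1626 and 2012 UMIs), the summed ratio was 0.24, no gene passed 1.5-fold and H2-D1 turned to -0.08.

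B2m had the largest of these ratios and the tightest interval. It stood at 1071 CPM in DTRneg and 1745 CPM in DTRpos (1090 and 1134 UMIs), a log2 ratio of 0.70 (0.58 to 0.83). After each cell was thinned to 1000 UMIs, 58.6% of 425 endothelial-like cells had a B2m UMI in DTRneg (exact binomial interval 53.7% to 63.3%) and 74.0% of 296 in DTRpos (68.6% to 78.9%); unthinned, 74.3% and 82.7% did. In oligodendrocyte-like cells, the class with the lowest B2m level, the thinned shares were 2.32% and 1.98%. H2-K1 went from 912 CPM in DTRneg to 1240 CPM in DTRpos (log2 ratio 0.44, 0.31 to 0.58), with 48.0% and 64.5% of thinned cells positive. For H2-D1 the levels were 1225 and 1331 CPM, and its ratio of 0.12 had an interval that took in 0 (-0.01 to 0.25). Its share of positive cells was a little lower in DTRpos, at 67.8% against 65.2% of thinned cells and 81.4% against 77.6% unthinned.

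Tap1 and Psmb9, the neighbours that lie head to head, had ratios of 0.67 (0.12 to 1.22; 58 and 59 UMIs) for Tap1 and 0.69 (0.33 to 1.06; 126 and 130 UMIs) for Psmb9. Psmb8 (0.58, 0.34 to 0.82) and Psmb10 (0.53, 0.27 to 0.80) lay just under 1.5-fold, which is 0.585 on the log2 scale. Tapbp was higher by 0.40 (0.05 to 0.76). Tap2 alone pointed the other way, from 66.8 to 44.6 CPM on 68 and 29 UMIs (log2 ratio -0.58, interval -1.26 to 0.07). The constitutive catalytic subunits Psmb5, Psmb6 and Psmb7, which Psmb8, Psmb9 and Psmb10 replace, had ratios of 0.20, 0.10 and -0.42 in the same cells, none past 1.5-fold.

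**Figure D2:**
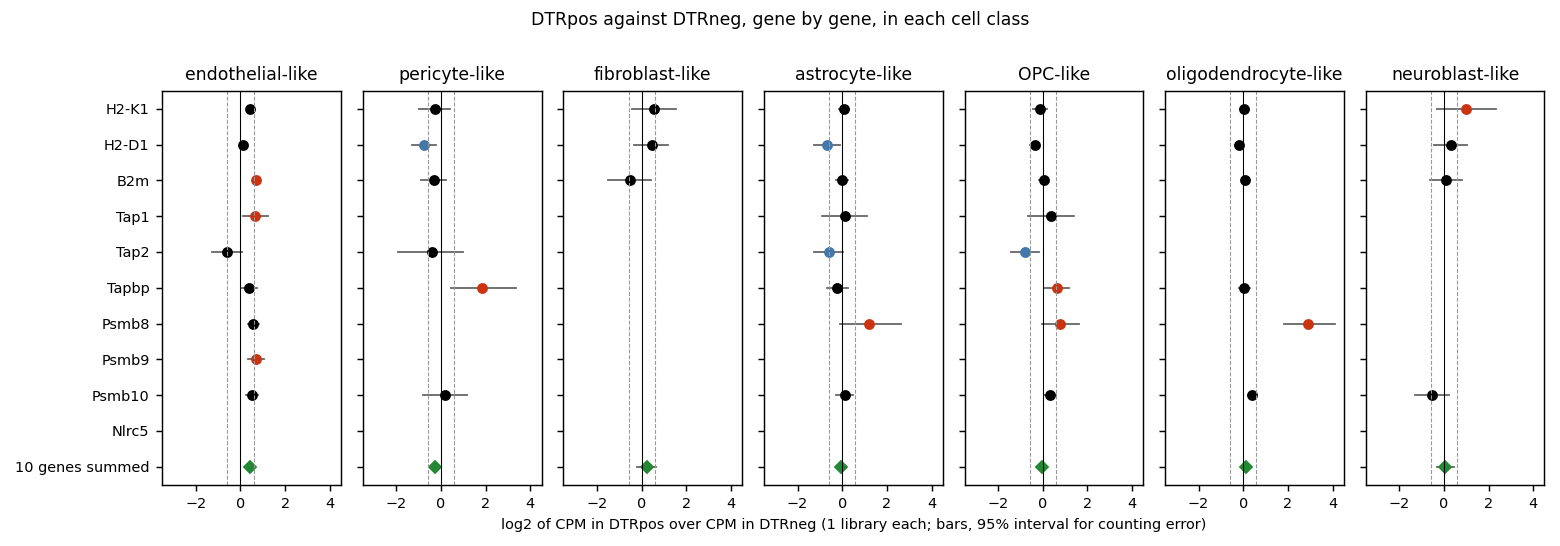
Log2 ratio of CPM in DTRpos over DTRneg for each gene with at least 20 UMIs over both libraries (circles; red past 1.5-fold higher, blue past 1.5-fold lower, black between) and for the 10 genes summed (green diamonds), with bars for the 95% interval of counting error and dashed lines at 1.5-fold. The endothelial-like panel has 8 of 9 genes right of 0; the other classes have 3 to 8 genes with enough UMIs, of which 2 to 5 lie right of 0.

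Markers of several other cell types moved with the class I genes in endothelial-like cells. From DTRneg to DTRpos the summed lists went from 25.5 to 108 CPM for red cells, from 114 to 229 CPM for neuroblasts, from 197 to 260 CPM for oligodendrocytes and from 11.8 to 47.7 CPM for OPCs. Most of the neuroblast sum was Sox4 (72.7 and 115 CPM) and Stmn2 (31.4 and 93.9 CPM). Dcx was at 0 in both libraries and Igfbpl1 had 2 and 0 UMIs. The macrophage list (Mrc1, Pf4, Cd74, Lyz2) summed to 10.8 CPM in endothelial-like cells of DTRneg and 26.2 CPM in DTRpos, with Mrc1 at 0 in both. Of the T-cell list only 1 UMI (of Cd4, in DTRpos) was found. Lower in DTRpos were the lists of astrocytes (170 and 108 CPM), pericytes (56.0 and 41.6 CPM), fibroblasts (6.88 and 0 CPM) and choroid plexus (mostly Ttr; 1737 and 35.4 CPM). The immediate early and heat shock genes of dissociation stress were at 17965 and 16560 CPM. The part of these in the ratios was not tested.

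Endothelial-like cells were also split by lists of arterial, capillary and venous genes. Capillary cells had the lowest summed level of the 10 genes in both libraries, 3369 CPM in DTRneg (264 cells) and 4529 CPM in DTRpos (190 cells). Venous cells stood at 6804 CPM (52 cells) and 9011 CPM (14 cells), and arterial cells at 5305 CPM (16 cells) and 9546 CPM (14 cells). Cells of no segment were at 4507 CPM (147 cells) and 6292 CPM (134 cells). The DTRpos level was above the DTRneg level within every segment, with log2 ratios of 0.43 (0.33 to 0.52) in capillary, 0.41 (0.21 to 0.60) in venous, 0.85 (0.58 to 1.12) in arterial cells and 0.48 (0.37 to 0.59) in the remainder. The make-up of the class also differed: from DTRneg to DTRpos, venous cells went from 10.9% to 3.98% of it, arterial cells from 3.34% to 3.98%, capillary cells from 55.1% to 54.0% and cells of no segment from 30.7% to 38.1%. The part of these shares in the summed ratio was not tested.

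In capillary cells B2m went from 906 to 1452 CPM, H2-K1 from 649 to 854 CPM and H2-D1 from 1007 to 1109 CPM. In arterial cells the 3 went from 1120 to 2668, 943 to 2118 and 1916 to 2393 CPM. Cell by cell, the median summed level was 3338 CPM in DTRneg, with 10% of cells under 999 and 10% over 8911, and 4932 CPM in DTRpos (1409 and 10427). The low end, the middle and the high end of the cells were all higher in DTRpos, and the 5 richest cells held 5.17% and 7.02% of the UMIs.

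**Figure D3:**
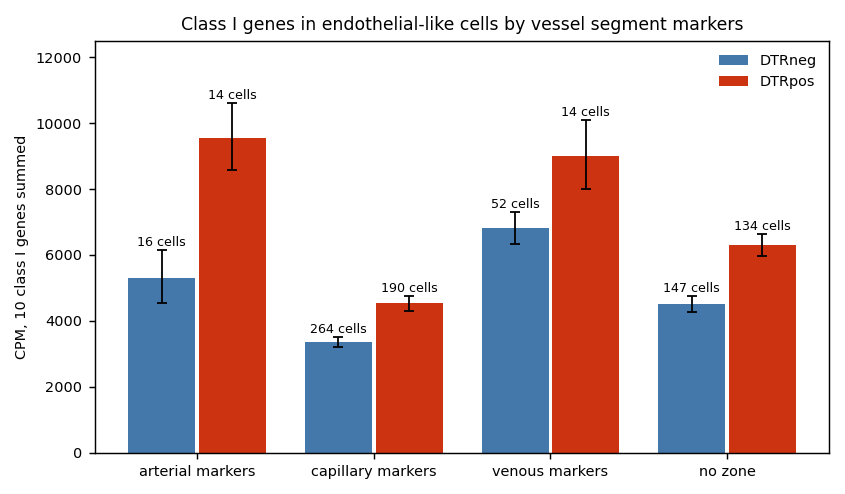
Summed CPM of the 10 genes in endothelial-like cells sorted by arterial, capillary or venous marker genes, in 1 library per genotype, with the number of cells over each bar and 95% Poisson intervals for counting error. DTRpos is above DTRneg in each segment, and capillary cells are lowest in both.

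The mural and fibroblast-like cells had fewer UMIs and wider intervals. In pericyte-like cells the summed log2 ratio was -0.27 (-0.55 to 0.01). Of 6 genes with enough UMIs, 1 passed 1.5-fold higher (10.1% of all genes did) and 1 lower (12.8% did), with a median of -0.31 against 0.01 for all 5014 genes. The lower gene was H2-D1, at 272 CPM in DTRneg and 161 CPM in DTRpos (log2 ratio -0.76, -1.32 to -0.22), and the higher was Tapbp, on 7 and 15 UMIs (1.82, 0.43 to 3.35). B2m, at 218 and 173 CPM, had a ratio of -0.33 (-0.89 to 0.21), an interval that lies wholly under that of B2m in endothelial-like cells. H2-K1 was at 137 and 112 CPM and Psmb10 at 56.3 and 64.3 CPM, while Tap1, Psmb8 and Psmb9 rested on 1 to 10 UMIs per library and Nlrc5 had none. In fibroblast-like cells only H2-K1 (117 and 171 CPM; log2 ratio 0.54, -0.45 to 1.52), H2-D1 (196 and 266 CPM; 0.44, -0.33 to 1.20) and B2m (190 and 133 CPM; -0.51, -1.53 to 0.42) had enough UMIs. None passed 1.5-fold in either direction (14.3% of genes passed it higher and 14.1% lower), and the median was 0.44 against 0.03 for all genes. The summed ratio was 0.24 (-0.19 to 0.66), an interval that holds the endothelial-like value of 0.45. The other 7 members had 0 to 11 UMIs per library there. Choroid plexus genes were far higher in DTRneg in these classes too, at 3611 against 16.1 CPM in pericyte-like and 7031 against 76.0 CPM in fibroblast-like cells, and their part was not tested.

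In astrocyte-like cells the summed level was nearly even (log2 ratio -0.04), and the 8 genes with enough UMIs scattered about 0 with a median of 0.04, equal to that of all 10918 genes. One passed 1.5-fold higher (6.8% of all genes) and 2 passed it lower (6.04%). The lower ones were H2-D1, at 27.0 and 16.9 CPM (-0.67, -1.25 to -0.11), and Tap2, at 21.4 and 14.1 CPM (-0.60, -1.24 to 0.02). Psmb8 was the higher one, on 8 UMIs in 7 cells of DTRneg and 16 UMIs in 8 cells of DTRpos, of which 6 lay in a single cell. Without the 5 richest cells its log2 ratio was 1.0498 (1.20 with them), on fewer than the 20 UMIs asked for. B2m (-0.01, -0.29 to 0.27) and H2-K1 (0.08, -0.15 to 0.32) were close to even.

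In OPC-like cells the summed ratio was again -0.04, with 2 of 8 genes past 1.5-fold higher (5.2% of 12767 genes) and 1 lower (5.01%), and a median of 0.18 against 0.04. Tapbp went from 13.6 to 20.96 CPM (0.62, 0.09 to 1.17) and Psmb8 from 5.83 to 10.1 CPM (0.79, -0.02 to 1.64). The Psmb8 UMIs lay in 20 cells of DTRneg and 27 cells of DTRpos (3.02% and 3.37% of the class). In DTRpos 7 of the 37 Psmb8 UMIs lay in a single cell. Tap2 went from 16.9 to 9.80 CPM (-0.79, -1.43 to -0.17). H2-D1 was lower by a smaller step, from 136 to 106 CPM on 491 and 390 UMIs (-0.36, -0.56 to -0.17), and Psmb10 was higher by 0.32 (0.05 to 0.59). Red cell genes summed to 4691 CPM in OPC-like cells of DTRneg and 45.5 CPM in DTRpos. Leaving mitochondrial and haemoglobin genes out of the totals changed no count of genes past 1.5-fold by more than 1.5 times in any class.

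**Figure D4:**
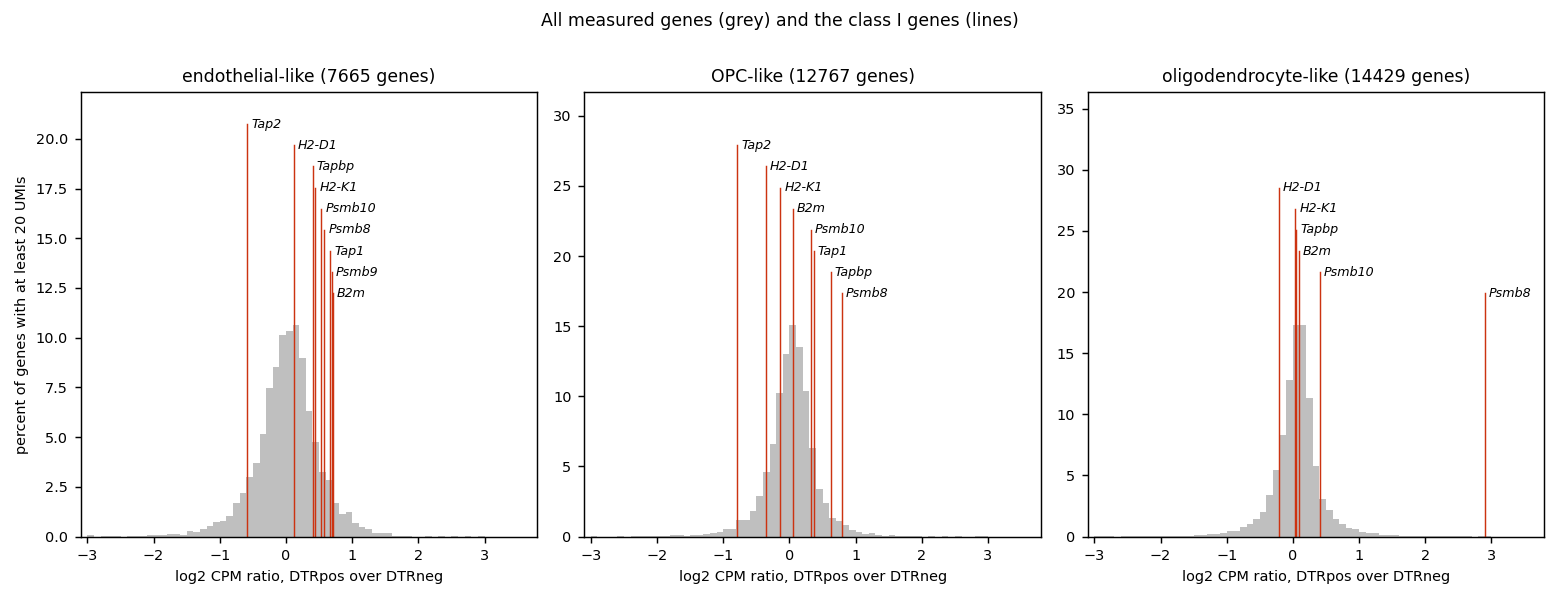
Distribution of log2 CPM ratios over all genes with at least 20 UMIs (grey bars, percent of genes, values beyond 3 in either direction placed in the end bars), with each class I gene as a labelled line of arbitrary height. In endothelial-like cells most of the lines lie right of the bulk, in OPC-like cells they spread to both sides, and in oligodendrocyte-like cells they lie within it apart from Psmb8.

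Oligodendrocyte-like cells gave the most UMIs of the 10 genes after the endothelial-like ones. Their summed ratio was 0.13 (0.04 to 0.21), and the median of 6 genes, 0.07, was that of all 14429 genes (0.07). Psmb10 was at 16.3 CPM in DTRneg and 21.5 CPM in DTRpos on 592 and 492 UMIs (0.41, 0.23 to 0.58), H2-D1 at 20.4 and 17.7 CPM (-0.21, -0.39 to -0.03), and H2-K1 (0.04), Tapbp (0.05) and B2m (0.09) were close to even. One gene, Psmb8, passed 1.5-fold higher (5.76% of all genes) and none lower (4.37%). Psmb8 went from 9 to 42 UMIs (log2 ratio 2.90), but these lay in 5 of 3709 and 13 of 2576 cells. Without the 5 richest cells its log2 ratio was 0.999, on fewer than the 20 UMIs asked for. The 8 and 15 oligodendrocyte-like cells with a Psmb8 or Tap1 UMI carried endothelial genes at 347 and 241 CPM, against 5.73 and 4.86 CPM in the other oligodendrocyte-like cells. They also carried the other 8 class I genes at 836 and 616 CPM, against 80.2 and 82.8 CPM. The macrophage list summed to 0.0824 CPM in the whole class in DTRneg and 4.03 CPM in DTRpos, and whether such cells are doublets was not tested.

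Neuroblast-like cells, the young neurons of the dentate gyrus, had few UMIs of any member. Of 4 genes with enough, H2-K1 passed 1.5-fold higher on 10 and 13 UMIs (0.98, -0.32 to 2.33; 9.23% of 8828 genes passed it), none passed it lower (8.96%), and the sign for H2-K1 turned when each cell was thinned to 2000 UMIs. B2m was at 33.3 and 35.4 CPM (0.09, -0.64 to 0.79), H2-D1 at 28.7 and 35.4 CPM (0.30, -0.44 to 1.04) and Psmb10 at 38.8 and 27.1 CPM (-0.51, -1.29 to 0.23). The other 6 members had 0 to 9 UMIs per library.

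Tap1 and Tap2, the partners of a single transporter, went apart when all cells used were summed. Over these cells, Tap1 was at 2.30 CPM in DTRneg and 4.17 CPM in DTRpos (log2 ratio 0.86, 0.49 to 1.23), and Tap2 at 5.04 and 4.05 CPM (-0.31, -0.63 to -0.01). Of the 113 and 140 Tap1 UMIs, 58 and 59 were in endothelial-like cells and 12 and 24 in cells of no class. Oligodendrocyte-like cells held 3 and 15, of which 7 in DTRpos lay in a single cell. Oligodendrocyte-like cells were 54.0% of DTRneg and 45.3% of DTRpos cells, and the part of this make-up in the pooled ratios was not tested. Tap2 was below 0 in each of the 4 classes where it had enough UMIs (endothelial-like, pericyte-like, astrocyte-like and OPC-like), and Tap1 above 0 in each of its 3 (endothelial-like, astrocyte-like and OPC-like). Only the intervals of Tap1 in endothelial-like and of Tap2 in OPC-like cells left out 0. Of these directions, Tap2 in pericyte-like cells turned in 2 of 10 alternatives, Tap1 in astrocyte-like cells in 4 of 11 and Tap1 in OPC-like cells in 1 of 11 (-0.12 with thinned cells). The difference between the 2 genes was not tested.

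The balance of the 2 heavy chains differed between classes by more than any change between genotypes. H2-K1 as a share of H2-K1 plus H2-D1 UMIs was 80.6% in astrocyte-like cells of DTRneg (exact binomial interval 76.4% to 84.4%) and 87.5% in DTRpos (83.5% to 90.9%). In OPC-like cells it was 27.0% (23.7% to 30.6%) and 30.2% (26.4% to 34.2%). Endothelial-like cells lay between, at 42.7% (40.6% to 44.8%) and 48.2% (45.8% to 50.7%), as did oligodendrocyte-like cells at 41.0% and 45.1%, fibroblast-like cells at 37.5% and 39.1% and pericyte-like cells at 33.5% and 41.2%. Neuroblast-like cells stood at 21.3% (10.7% to 35.7%) and 30.2% (17.2% to 46.1%), intervals that overlap those of OPC-like cells. Astrocyte-like cells were thus the 1 hippocampal class with more H2-K1 than H2-D1 UMIs in both libraries. Between libraries, the share was higher in DTRpos in all 7 classes, and the 2 intervals were apart only in endothelial-like cells. That direction did not hold in every class under other settings. With each cell thinned to 1000 UMIs it turned in oligodendrocyte-like (42.9% and 39.8%) and neuroblast-like cells (40% and 16.7%, with 2 and 1 H2-K1 UMIs), and in fibroblast-like cells it turned without the 5 richest cells (50% and 41.4%) and under the stricter class rule (39.0% and 38.5%). With thinning it was 76.8% and 87.8% in astrocyte-like, 42.4% and 47.9% in endothelial-like and 29.4% and 30.3% in OPC-like cells. H2-K1 and H2-D1 are near relatives, and how reads common to both were counted is not given in the sources used here. A gene length cancels in this comparison between classes.

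**Figure D5:**
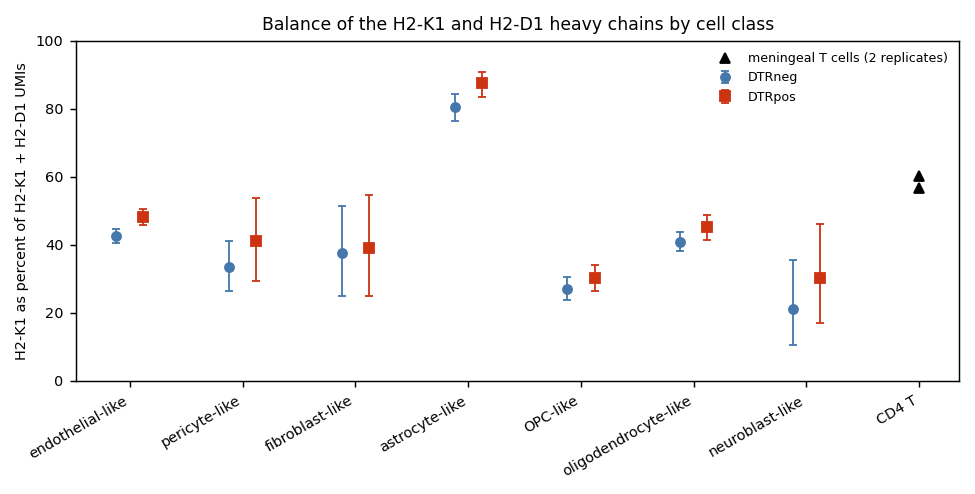
H2-K1 UMIs as a percent of H2-K1 plus H2-D1 UMIs in each cell class, with exact 95% binomial intervals for counting error, and in the 2 meningeal replicates (triangles). Astrocyte-like cells stand above 80% in both libraries and OPC-like cells near 30% or under, and every DTRpos point is above its DTRneg point.

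Other genes of the pathway were read from lists of 41 genes chosen by role. In endothelial-like cells 32 had enough UMIs, 4 passed 1.5-fold higher and 1 lower, near the 9.46% and 8.73% of all genes in this class, with a median of 0.14. Among the other heavy chains, the nonclassical H2-Q6 (18.7 and 40.0 CPM) and H2-Q7 (48.1 and 102 CPM; log2 ratio 1.08, 0.52 to 1.64) were higher, H2-M3 was lower (46.2 and 21.5 CPM; -1.10, -2.08 to -0.21), and H2-T23 (237 and 226 CPM) was close to even. H2-Q6 and H2-Q7 are close copies of each other, and their UMIs may be split between them. Of the loading genes, Tapbpl, a relative of tapasin, passed on 23 UMIs in each library (0.65, -0.25 to 1.55), and the peptidase Erap1 (0.29), Calr (0.22), Canx (-0.18) and Pdia3 (-0.16) did not. The proteasome activator subunits Psme1 (0.40, 0.21 to 0.59) and Psme2 (-0.02) and the assembly factor Pomp (0.29, 0.13 to 0.45) stayed under 1.5-fold. Of the transcription factors Creb1 alone passed (0.65, 0.03 to 1.26), with Irf1 at 0.29 and Irf2 at 0.42, and Batf3 and Irf8 had no UMI. None of the 4 interferon receptor genes passed, with ratios from -0.47 (Ifngr1) to 0.14 (Ifnar2).

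In the other classes the counts past 1.5-fold were 2 of 18 higher and 2 lower in pericyte-like (10.1% and 12.8% of all genes), 1 of 12 higher and 1 lower in fibroblast-like (14.3% and 14.1%), 1 of 27 higher and 2 lower in astrocyte-like (6.8% and 6.04%), 1 of 30 higher and 1 lower in OPC-like (5.2% and 5.01%), 1 of 29 higher and 0 lower in oligodendrocyte-like (5.76% and 4.37%) and 0 of 22 in either direction in neuroblast-like cells (9.23% and 8.96%). Irf1 was the higher gene in oligodendrocyte-like cells, at 2.06 CPM in DTRneg and 3.50 CPM in DTRpos (0.77, 0.29 to 1.24), and in astrocyte-like cells on 8 and 15 UMIs. In pericyte-like cells Irf1 was the other way, on 27 UMIs in DTRneg and 1 in DTRpos.

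The genes whose level over the 14 class-by-library sums was most like the mean of the 10 members were sought among 10933 genes, with Pearson's r on the log2(CPM + 10) scale as a description. The closest were Cd2ap (r = 0.977), the interferon-inducible GTPase Igtp (0.974), Trim56 (0.972), Nmi (0.967), Irf9 (0.962), Pir (0.959), Erap1 (0.957), Il10rb (0.953), the GTPase Irgm1 (0.951) and 2900026A02Rik (0.950). The points share 2 libraries, and the endothelial-like class lies far from the others, so that any endothelial gene scores high. In endothelial-like cells Igtp went from 113 to 183 CPM and Irgm1 from 66.8 to 115 CPM, while Il10rb went from 198 to 131 CPM. Within the 10 members, each against the mean of all, itself included, B2m was closest (r = 0.987) and Nlrc5 (0.844) and Tap2 (0.859) farthest. Nlrc5 had at most 8 UMIs in any class of a library (12.3 CPM), near the 10 CPM added before the log, so its r says little.

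Meningeal CD4 T cells, as a reference, carried more of most members than any hippocampal class. Summed over the 10 genes they stood at 13055 CPM in replicate 1 (1839 cells) and 11078 CPM in replicate 2 (4226 cells), 12066 ± 1398 (SD, n = 2). H2-K1 was at 4393 ± 375 CPM, H2-D1 at 3127 ± 586 CPM, B2m at 2282 ± 552 CPM and Psmb8 at 1008 ± 82.8 CPM (all SD, n = 2). Tap1 was at 194 ± 0.64, Tap2 at 224 ± 0.83, Tapbp at 246 ± 20.3, Psmb9 at 296 ± 7.5 and Nlrc5 at 61.2 ± 6.1 CPM, each above both endothelial-like values. Psmb10, at 236 ± 14.7 CPM, was the exception: endothelial-like cells stood at 246 and 356 CPM. H2-K1 made up 56.8% and 60.3% of the heavy-chain UMIs of the T cells. These sums also held the macrophage list at 926 CPM in replicate 1 and 525 CPM in replicate 2, and the fibroblast list at 586 and 3.72 CPM. The T-cell list was at 2654 and 3076 CPM, and the part of other cells' RNA in the levels was not tested. The 2 tissues differ in sort, genotype, depth and, by the series design, in kit, so these levels are set side by side and not tested.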

How the data were processed

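Single-cell RNA was measured in 2 hippocampal libraries and 2 meningeal libraries, the latter with hashtag libraries. The deposited matrices are unnormalized UMI counts. Per the file headers, the Cell Ranger version was 6.1.0 for the hippocampus, 4.0.0 for meninges replicate 1 and 6.0.0 for replicate 2. The submitters' processing notes name Cell Ranger 6.1.0, Seurat and mm10. The strand and multi-mapping settings are not given in the sources used here, the labels' protocols name a 3′ kit for all samples, and the series design names a 5′ kit for the T cells. The deposited hashtag counts assigned meningeal barcodes (hashtags 7 and 10, at least 10 counts and 2 times the next). For replicate 1 the labels pair the name of hashtag 7 with another hashtag's sequence, and the name decided. T-cell receptor tables were not used here.

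Hippocampal cells needed at least 500 genes and under 15% mitochondrial UMIs, and Scrublet doublets (Scanpy 1.11.5; 242 and 158 cells, 3.41% and 2.70%) were removed. Meningeal cells needed under 10% mitochondrial UMIs and at least 2 UMIs over 6 T-cell receptor complex genes; no doublet caller was used there beyond the hashtag margin. UMIs were summed per class and library, and CPM, exact Poisson intervals, exact conditional binomial intervals of ratios and exact binomial intervals of shares (95%, counting error only) were computed in Python 3.11.15 with NumPy 2.4.6 and SciPy 1.17.1, after a test on simulated data. Genes entered a ratio with at least 20 UMIs over both libraries. A library at 0 was given a floor of 3 counts, and no ratio is given where both lie at or under it. Leading genes were ranked among genes of at least 200 CPM. Vessel segments were read from 4 genes each. The 2 meningeal replicates differ in genotype and Cell Ranger version, so their SD mixes these with the spread between samples. Gene IDs matched GENCODE M21 in 55141 of 55487 cases, and all 10 members matched. The genes named are the 10 members, the pathway lists and the 10 genes of closest pattern; members with few UMIs in a class are given by their range. The members and lists were chosen with earlier results of these data known.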

Additional observations from a re-analysis of the deposited data

Results flagged for a closer look

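Cells that entered no class lie outside the class comparisons above, and they held UMIs of the 10 genes. These cells stood at 404 CPM in DTRneg (955 cells, 1388 UMIs) and 424 CPM in DTRpos (969 cells, 1154 UMIs). Their ratio was 0.07 on the log2 scale (95% interval for counting error -0.05 to 0.18). Within them Tap1 was at 3.49 and 8.81 CPM (1.34, 0.28 to 2.47) and Tap2 at 9.61 and 4.41 CPM (-1.12, -2.21 to -0.13), on 12 and 24 UMIs and 33 and 12 UMIs. Psmb10 was at 49.2 and 65.7 CPM (0.42, 0.11 to 0.73) and H2-D1 at 81.2 and 71.6 CPM. No group of more than 2 replicates was present in which a sample could stand apart from the others.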

How the results depend on the processing

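No paired analysis was possible because no result comes from a test, and the replicate numbers shared in the labels join libraries of the same meningeal cells. Of 480 alternative values of 44 member ratios, 450 kept their sign and 30 turned, over 15 ratios. Of these 15, 1 had passed 1.5-fold: H2-K1 in neuroblast-like cells, at -1.21 with cells thinned to 2000 UMIs. The other 14 lay no farther than 0.384 from 0 on the log2 scale. The summed endothelial-like ratio was 0.52 with at least 1000 detected genes per cell, 0.38 as a mean of CPM per cell and 0.35 without B2m. As UMIs per cell, added after seeing the data, the summed ratios were 0.24 in endothelial-like, -0.67 in pericyte-like, -0.31 in astrocyte-like, -0.28 in OPC-like and -0.022 in oligodendrocyte-like cells, 0 genes passed 1.5-fold in endothelial-like and OPC-like cells, and 4 (DTRneg) and 2 (DTRpos) of 7 classes kept their place in the order. As a mean of CPM per cell the oligodendrocyte-like ratio was 0.020. With classes from 3 markers, the fibroblast-like ratio was 3.14 on 5 and 8 cells, and 4 classes kept their place in DTRneg.

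Genes past 1.5-fold higher in endothelial-like cells numbered 1 with 1 marker UMI and none of the others, 5 with at least 1000 genes, 5 without the 5 richest cells and 0 past 2-fold. In the other classes the count became, with 1 marker UMI, 1 (fibroblast-like) and 0 (neuroblast-like); with 3 marker UMIs at 5 times the next, 0 (astrocyte-like); with 3 markers, 1 (OPC-like) and 0 (neuroblast-like); with doublets kept, 3 (oligodendrocyte-like); with thinning, 0 (pericyte-like, astrocyte-like and oligodendrocyte-like); centred on the median gene, 1 (OPC-like); as a mean of CPM per cell, 1 (fibroblast-like). Without the 5 richest cells it was 0 (astrocyte-like, oligodendrocyte-like and neuroblast-like) and 1 (OPC-like), past 2-fold 0 (OPC-like and neuroblast-like), and with no UMI minimum 2 (pericyte-like), 3 (fibroblast-like), 4 (OPC-like and neuroblast-like) and 5 (oligodendrocyte-like). The T-cell mean was 15853 CPM with mitochondrial and ribosomal protein genes out of the totals, 9785 CPM without B2m, and 11078 to 13055 CPM with 1 replicate left out. The cause of these moves was not tested. Few UMIs limit Nlrc5 in every class and Tap1, Psmb8 and Psmb9 outside endothelial-like cells.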
